A study of Saccharomyces cerevisiae with 8 samples.

Results

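Of 5753 open reading frame transcripts (ORF-Ts) in yeast, 111 have a cryptic unstable transcript (CUT) that starts just upstream of them and runs in the same direction. Here these are called ORF-Ts with a tandem CUT. A member is an ORF-T for which a CUT of the same chromosome and strand has its 5′ end 1 to 500 bases upstream of the 5′ end of the ORF-T. Only coordinates were used to choose them. The rule found 112 of 732 CUTs and 112 pairs, since ADE12 has 2 tandem CUTs. The other 5642 ORF-Ts and 620 CUTs served for comparison.

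RNA-Seq compared a strain of Saccharomyces cerevisiae that lacks RRP6 (rrp6Δ), taken from a knockout collection, with a wild-type (WT) strain, both isogenic to BY4741, a standard haploid laboratory strain. Each strain was sequenced in 4 replicates, grown to an OD600 of 0.8. Total RNA was depleted of rRNA and read by strand-specific SOLiD sequencing, and the values are raw read counts per annotated transcript. ORF-T annotations include untranslated regions.

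Rrp6 is the 3′ to 5′ exonuclease of the nuclear exosome. CUTs are short RNA polymerase II transcripts that the Nrd1-Nab3-Sen1 (NNS) complex terminates and that the exosome, helped by the TRAMP polyadenylation complex, degrades at once. Nrd1 and Nab3 are RNA-binding proteins that recognise short motifs in the nascent RNA, and a CUT that starts over the promoter of a gene in the same direction is a known form of regulation at nucleotide synthesis genes such as URA2 and ADE12. There, start sites for the unstable and for the productive transcript lie in tandem, and which one is used follows the nucleotide supply. The comparison below asks how the CUT and the ORF-T of each pair differ in count between the strains.

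The stretch from the 5′ end of the CUT to the base before the ORF-T is printed for 6 pairs, those of the 3 ORF-Ts that rose, of URA2 and ADE12 as the known cases, and of GAL11, whose CUT had at most 3 counts in each WT library. Sequences are from RefSeq, assembly R64 (sacCer3), 5′ to 3′ on the strand of the pair. Capitals mark the motifs GTAA and GTAG, which Nrd1 binds, and TCTT and CTTG, which Nab3 binds. TCTT and CTTG overlap in TCTTG.
UBX6, chrX:348881-348915, minus strand: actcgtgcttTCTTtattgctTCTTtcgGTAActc
URA2, chrX:173026-173060, minus strand: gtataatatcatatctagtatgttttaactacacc
GAL11, chrXV:234610-234749, plus strand: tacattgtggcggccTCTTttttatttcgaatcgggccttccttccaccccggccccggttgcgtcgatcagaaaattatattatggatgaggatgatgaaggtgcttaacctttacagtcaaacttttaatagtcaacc
YPL222C-A, chrXVI:132115-132413, minus strand: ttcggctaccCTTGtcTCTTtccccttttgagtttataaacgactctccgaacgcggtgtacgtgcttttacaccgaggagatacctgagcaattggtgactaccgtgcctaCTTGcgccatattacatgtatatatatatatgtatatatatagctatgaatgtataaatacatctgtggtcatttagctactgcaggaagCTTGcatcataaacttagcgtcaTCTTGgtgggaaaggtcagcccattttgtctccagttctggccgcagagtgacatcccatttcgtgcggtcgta
RPL18B, chrXIV:64587-64814, minus strand: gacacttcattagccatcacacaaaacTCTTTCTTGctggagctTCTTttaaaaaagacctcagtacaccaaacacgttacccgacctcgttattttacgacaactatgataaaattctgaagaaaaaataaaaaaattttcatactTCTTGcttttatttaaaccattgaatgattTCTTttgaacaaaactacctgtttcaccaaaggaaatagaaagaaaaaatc
ADE12, chrXIV:234043-234321, plus strand: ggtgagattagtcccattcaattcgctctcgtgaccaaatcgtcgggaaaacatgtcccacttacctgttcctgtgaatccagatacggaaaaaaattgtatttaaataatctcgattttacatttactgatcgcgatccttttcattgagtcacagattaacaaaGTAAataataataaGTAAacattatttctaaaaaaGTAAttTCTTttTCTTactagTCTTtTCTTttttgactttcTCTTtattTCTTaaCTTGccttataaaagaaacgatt
The stretches differ in motif content. The ADE12 stretch holds 3 Nrd1 and 7 Nab3 motifs, the RPL18B stretch 7 Nab3 motifs and no Nrd1 motif, and the 35 bases of URA2 neither motif.

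Over all members, the 250 bases before the ORF-T held more of these motifs on the transcribed strand than those of other ORF-Ts. Nrd1 motifs averaged 2.53 ± 1.60 per member and 1.91 ± 1.41 per other ORF-T (SD, n = 111 and 5642). Nab3 motifs averaged 4.89 ± 2.69 per member and 3.12 ± 2.21 per other ORF-T. On the opposite strand the means were 1.87 per member and 1.90 per other ORF-T for Nrd1, and 2.40 and 2.90 for Nab3. At least 1 Nrd1 motif was found before 91.9% of members and 84.3% of other ORF-Ts, and at least 1 Nab3 motif before 96.4% of members and 91.8% of other ORF-Ts. The letters TATAAA occurred on the strand of the gene before 35.1% of members and 24.8% of other ORF-Ts, and on the opposite strand before 18.0% and 23.4%. GC content was 36.3% in both groups. These differences were not tested. They are matches of letters and not measured sites, and the windows of members overlap the CUTs by the way they were chosen.

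The CUTs were short and mostly ended at the start of the ORF-T. Their median length was 245 bases (105 to 609), against 453 bases for the other CUTs. Their 5′ ends lay a median of 280.5 bases upstream (35 to 497). The rule limits this distance, and a CUT that ends before the ORF-T cannot be longer than it. The gap to the ORF-T is bounded in the same way. Neither the shorter length nor the closeness of the ends to the ORF-T is therefore independent of the rule. In 71 pairs the CUT ended before the ORF-T, by a median of 27 bases and at most 329, and in 39 of them within 30 bases. In the other 41 pairs the CUT ran into the ORF-T, by a median of 13 bases and in 28 by at most 20, so that the longest shared stretches were few. An overlap of 1 base depends on how the ends are counted. Overlaps of over 100 bases occurred in 5 pairs, those of DCW1, UBX6, MTO1, SMN1 and SRP40, of which DCW1 had the longest, 348 bases. In 3 of 111 pairs with a known start codon, those of UBX6, DCW1 and SRP40, the CUT ended beyond that codon.

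**Figure D1:**
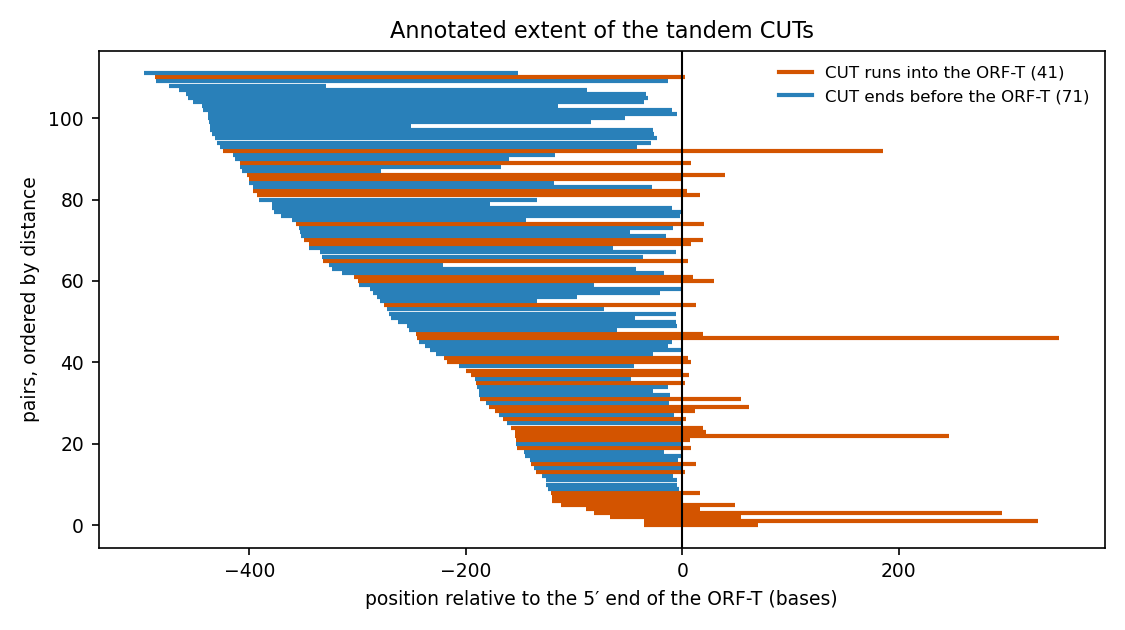
Annotated extent of the 112 tandem CUTs, one line per pair, in bases from the 5′ end of the ORF-T (position 0), ordered by distance. The 71 blue CUTs end before the ORF-T and the 41 orange CUTs run into it, 5 of them by over 100 bases.

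A Nrd1-unterminated transcript (NUT), which is annotated from RNA of cells depleted of Nrd1, lay on 55 of the 112 CUTs (49.1%) and reached the ORF-T start in 30 pairs. A NUT crossed the 5′ end of 26.1% of the members and of 4.08% of the other ORF-Ts. Members were chosen for a noncoding transcript just upstream on the same strand, so this difference is not independent of the rule. Stable unannotated transcripts (SUTs) lay on 3 CUTs. In 10 pairs another ORF-T on the same strand overlapped the CUT, and in 10 pairs an ORF-T on the opposite strand did. Reads of such a neighbour on the same strand are counted on the CUT as well. Small nucleolar RNAs (snoRNAs) were looked for only within the member ORF-Ts, where there were 0. Whether a snoRNA lies next to or upstream of a CUT was not examined.

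Counts totalled between 8761140 and 12666126 in rrp6Δ libraries and between 6904004 and 11298227 in WT libraries, so that 3 counts corresponded to between 0.183 and 0.444 normalized counts. Normalized counts are CPM values from edgeR after TMM scaling. The RRP6 ORF-T had 60, 31, 42 and 16 counts in the rrp6Δ libraries, against 1787, 1030, 754 and 660 in the WT libraries, which fits the strain labels. Changes are given as log2 fold changes of rrp6Δ over WT from edgeR's quasi-likelihood test, with scaling by the TMM method over all transcripts. Up- and down-regulated transcripts are those that changed 1.5-fold or more with p below 0.05, and whose false discovery rate (FDR), adjusted by the Benjamini-Hochberg procedure across the 10054 transcripts, did not exceed 0.1. No transcript was removed for low counts, so all 111 ORF-Ts and 112 CUTs were tested. With this scaling the median log2 fold change of all ORF-Ts was -0.32, and it was -0.0052 when the scaling used ORF-Ts only and 0.036 with library totals. Such counts are relative, so neither the number of cells nor the RNA per cell can be read from them. A shift common to all ORF-Ts therefore depends on the scaling.

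Most tandem CUTs were more abundant in rrp6Δ. Of 112, 76 were up-regulated (67.9%), against 81.3% of all CUTs, and 1 was down-regulated, against 0.546% of all CUTs. The strains did not overlap, with rrp6Δ higher, in 59 CUTs (52.7%), against 71.4% of all CUTs. The median log2 fold change was 1.60 for tandem CUTs and 2.08 for the other CUTs. Their median mean count per library was 28.1 in rrp6Δ and 6.5 in WT, and 9 of them had at most 3 counts in every WT library. CUTs were originally annotated from RNA that accumulates without Rrp6, so their rise is not independent of their definition. Of the 10 tandem CUTs that another ORF-T on the same strand overlaps, only CUT630 and CUT689* were up-regulated. How far reads of such neighbours lower the share of tandem CUTs called was not tested. When every library had to hold 10 counts or more, 15 tandem CUTs were left and 4 of them were up-regulated (26.7%). Of 84 other CUTs left, 52 were up-regulated (61.9%). That filter keeps only CUTs already counted in every WT library.

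CUTs that ended before the ORF-T were up-regulated in 53 of 71 cases (74.6%), and CUTs that ran into it in 23 of 41 (56.1%). CUTs over 250 bases upstream were up-regulated in 48 of 64 cases, and nearer ones in 28 of 48. Where a NUT on the CUT reached the start of the ORF-T, 29 of 30 CUTs were up-regulated, and their median change was 2.03 on the log2 scale. Elsewhere 47 of 82 were up-regulated, and the median was 1.33. These shares were not tested against each other.

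The CUT before MET16, which encodes a reductase of sulfate assimilation, had the highest fitted change. CUT920 had 18, 24, 20 and 9 counts in rrp6Δ libraries, against 0, 0, 0 and 1 in WT libraries. The summed counts differed 47.9-fold after scaling, with a 95% interval from 8.33 to 1919 that covers counting error only. No library of the strains overlapped, yet the WT value rests on 1 read. CUT365, which lies before GAL11 (MED15, a subunit of the Mediator tail), had 64, 64, 65 and 39 counts in rrp6Δ, against 1, 3, 0 and 1 in WT. Its summed counts were 31.3-fold higher in rrp6Δ (13.2 to 97.3). CUT365 lies on NUT0692, for which the paper lists values close to those of the snoRNA SNR81 in both strains. Whether reads of CUT365 belong to an extended snoRNA was not tested. CUT543, which lies before POL5, a nucleolar factor of rRNA synthesis, had 153, 59, 138 and 112 counts in rrp6Δ, against 13, 3, 0 and 0 in WT (log2 fold change 4.34, SE 0.63, FDR 5.42e-04). CUT543 lies on NUT0953, and its neighbouring snoRNAs were not examined either. In each of these 3 pairs the CUT rose while the ORF-T did not pass the thresholds.

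MET16 had 12.3, 11.95, 11.7 and 14.5 normalized counts in rrp6Δ libraries, against 16.2, 13.3, 16.1 and 22.3 in WT libraries (log2 fold change -0.43, SE 0.22, FDR 0.160). POL5 had 171, 97.8, 136 and 131 in rrp6Δ, against 214, 180, 156 and 149 in WT (-0.38, SE 0.21, FDR 0.195). For GAL11 the values were 8.30, 8.63, 9.29 and 9.77 in rrp6Δ, against 6.35, 7.04, 7.995 and 37.1 in WT. A single WT library, replicate 4, was high for GAL11. The fitted log2 fold change was -0.69 with this library (SE 0.50, FDR 0.306) and 0.41 without it. Per base, CUT365 was counted at 1287% of the density of the GAL11 ORF-T in rrp6Δ on average, and at 42.3% in WT.

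Not every tandem CUT rose. The most counted one, CUT567, lies 329 bases before PMD1 and had 72.6, 174, 182 and 132 normalized counts in rrp6Δ, against 77.5, 188, 167 and 91.1 in WT (log2 fold change 0.10, SE 0.34, FDR 0.831). Per base, CUT567 was counted at 49041% of the density of PMD1 in rrp6Δ and 31815% in WT, so it is not typical of these CUTs. What lies between CUT567 and PMD1 was not examined. CUT887, before NAB3, had 22, 10, 14 and 23 counts in rrp6Δ, against 19, 14, 7 and 11 in WT (-0.10, SE 0.37, FDR 0.849). The strains overlapped for both. CUT404, before SUI3, was the 1 that fell, with 3.42, 2.18, 3.10 and 1.72 normalized counts in rrp6Δ, against 4.06, 5.53, 3.70 and 5.28 in WT (-0.81, SE 0.31, FDR 0.0687). All rrp6Δ libraries lay below all WT libraries. The call of CUT404 was lost when the scaling used ORF-Ts only or library totals, and without any 1 of 5 libraries: WT replicates 1, 2 and 4, and rrp6Δ replicates 2 and 4 (FDR 0.102 to 0.169).

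The ORF-Ts were called about as often as ORF-Ts at large. Of 111 members, 3 were up-regulated (2.70%), against 2.09% of all ORF-Ts, and 19 were down-regulated (17.1%), against 14.3% of all ORF-Ts. Members with all rrp6Δ libraries above all WT libraries numbered 3 (2.70%), against 1.63% of all ORF-Ts, and those with all below numbered 20 (18.0%), against 13.8%. The median log2 fold change was -0.40 for members and -0.32 for other ORF-Ts, a difference of -0.08 that shrank to -0.0026 without WT replicate 4. Set against the other ORF-Ts' median, 9 members were higher by at least 1.5-fold (8.11%) and 7 lower (6.31%), against 6.10% and 6.47% of other ORF-Ts.

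How many members were called depended on the scaling. With TMM factors from ORF-Ts only, 6 were up-regulated and 5 down-regulated, against 3.90% and 2.55% of other ORF-Ts. The 5 were ADH2, RPS14A, SUN4, YJL213W and RPS3, all among the 19. The 6 were the 3 already called and TDA2, FUS3 and DIP5. Library totals gave 5 up and 2 down, against 3.85% and 1.47% of other ORF-Ts. DESeq2, which scales over all transcripts as well, gave 3 up (2.70%) and 18 down (16.2%), against 2.20% and 14.2% of other ORF-Ts. Of the 18, 17 were among the 19, with PST1 and ARO2 lost and PSA1 gained. Leaving out rrp6Δ replicate 1 or WT replicate 4 each gave 10 down-regulated members in place of 19. Shares of other ORF-Ts without these libraries are not given here.

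**Figure D2:**
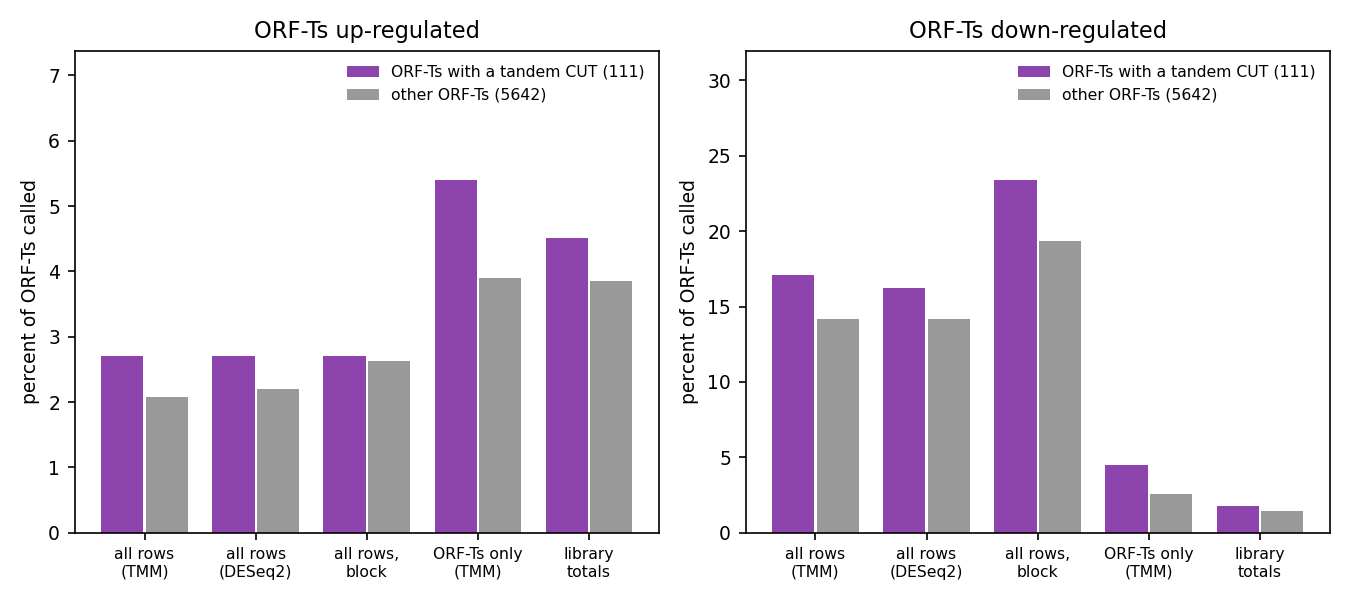
Percent of ORF-Ts called up-regulated (left) and down-regulated (right) in rrp6Δ under 5 fits, for ORF-Ts with a tandem CUT (purple, n = 111) and other ORF-Ts (grey, n = 5642); bars start at 0. The share of members called down is 17.1% with TMM over all rows and 4.50% with TMM over ORF-Ts only, and the share of other ORF-Ts moves with it, 14.2% and 2.55%.

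The calls of the CUT and of its ORF-T were set side by side over the 112 pairs, which share the same 8 libraries and in 41 cases some bases. Of 76 pairs whose CUT rose, the ORF-T rose in 3, fell in 15 and was not called in 58. These pairs hold 75 ORF-Ts, of which 4% rose and 20% fell, against 2.09% and 14.3% of all ORF-Ts. Of the other 36 pairs, the ORF-T rose in 0 by edgeR (also 0 at an unadjusted p under 0.05), fell in 4 (11.1%) and was not called in 32. These shares were not tested against each other.

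**Figure D3:**
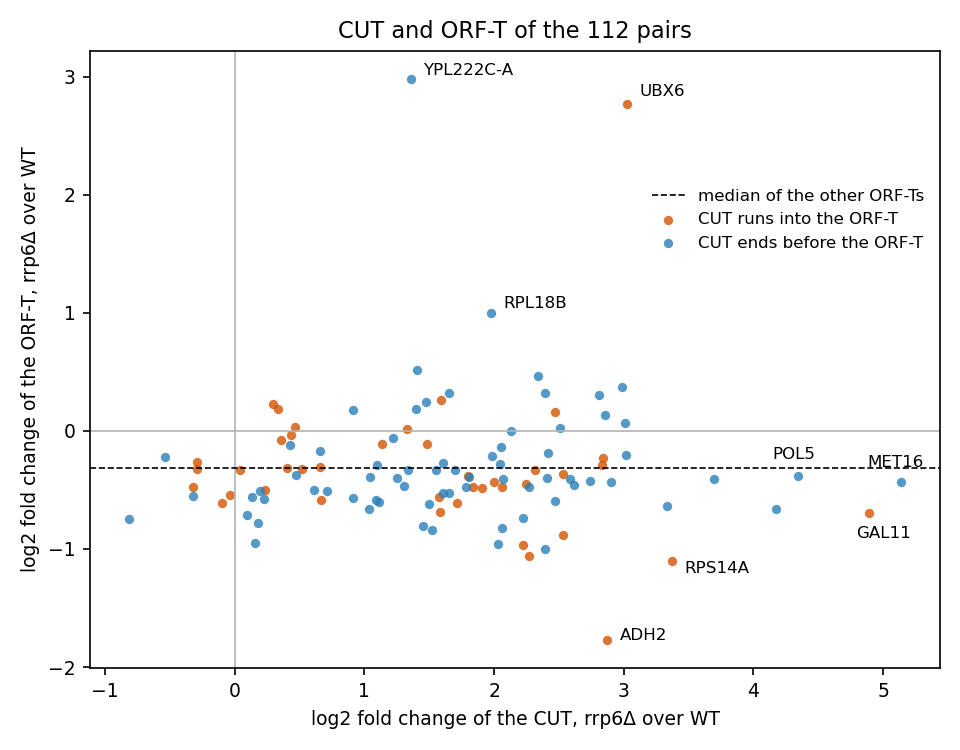
Log2 fold change of the ORF-T (vertical) against that of its tandem CUT (horizontal), rrp6Δ over WT, for 112 pairs; orange, CUT runs into the ORF-T; blue, CUT ends before it; dashed line, median of ORF-Ts without a tandem CUT, -0.32. The ORF-Ts YPL222C-A, UBX6 and RPL18B stand above the rest, and most points lie to the right of 0 and between -1 and 0.5 on the vertical axis.

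The ratio of CUT to ORF-T counts within a library does not depend on scaling. In 61 of 112 pairs (54.5%) every rrp6Δ library had a higher ratio than any WT library. Among other CUTs, set against the next ORF-T downstream on the same strand, this held for 68.8%. The median log2 change of the ratio, with 0.5 added to each count, was 2.13. Per base, the CUT was counted at a median of 38.5% of the density of its ORF-T in rrp6Δ and 11.6% in WT. It exceeded the ORF-T in 25 pairs in rrp6Δ and in 6 in WT. The 1 pair whose ratio was lower in all rrp6Δ libraries was that of YPL222C-A.

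The 3 ORF-Ts that rose were UBX6, RPL18B and YPL222C-A, the last of which the paper treats as an antisense transcript. UBX6 (YJL048C) encodes a UBX-domain protein that binds the ATPase Cdc48. It had 137, 99.8, 208 and 144 normalized counts in rrp6Δ, against 20.2, 23.4, 28.0 and 14.8 in WT (log2 fold change 2.77, SE 0.27, FDR 4.78e-05). No libraries overlapped, and the two-sided exact permutation test over 4 against 4 libraries gave 0.0286, the smallest p it can give and the value for every transcript without overlap described here.

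Its CUT, CUT689*, starts 35 bases upstream and shares 329 bases, or 90.4% of its length, with the UBX6 ORF-T. CUT689* had 2344, 973, 2798 and 1502 counts in rrp6Δ, against 203, 174, 172 and 64 in WT (log2 fold change 3.02, SE 0.32, FDR 9.11e-05). The UBX6 ORF-T had 2246, 960, 2754 and 1507 counts in rrp6Δ, against 239, 186, 189 and 104 in WT. Thus the CUT had 99.7% to 104% of the counts of the whole ORF-T in rrp6Δ, and 61.5% to 93.5% in WT. After taking the overlapped share of the CUT counts off the ORF-T, 127, 81, 225 and 149 counts were left in rrp6Δ, against 56, 29, 34 and 46 in WT, and UBX6 was still up-regulated. With all CUT counts taken off, 0, 0, 0 and 5 were left in rrp6Δ, against 36, 12, 17 and 40 in WT, and the log2 fold change was -4.78. A further ORF-T, YJL047C-A, overlaps the same stretch on the same strand, with 5318, 2785, 6416 and 3596 counts in rrp6Δ, against 1147, 1457, 1173 and 3091 in WT. Which of these transcripts the reads came from cannot be told from the counts.

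YPL222C-A lies antisense within YPL222W (FMP40) on chromosome XVI, and inside NUT1462. The paper labels it a dubious ORF and treats it as the antisense transcript of FMP40 that Nrd1 terminates. From RNA polymerase II occupancy and northern blots, the paper proposes that it is extended in rrp6Δ, with CUT882 as the extension. Its rise is thus not that of a coding gene with a tandem CUT. It had 44.4, 56.5, 50.0 and 45.7 normalized counts in rrp6Δ, against 4.82, 8.80, 8.44 and 2.85 in WT (log2 fold change 2.98, SE 0.31, FDR 8.61e-05). All rrp6Δ libraries lay far above WT. NUT1462, whose stretch includes all of YPL222C-A and so shares its reads, had 1191, 909, 997 and 685 counts in rrp6Δ, against 120, 117, 82 and 60 in WT (2.76, SE 0.22, FDR 2.60e-05). The tandem CUT, CUT883, ends 82 bases before YPL222C-A and had 16, 16, 31 and 16 counts in rrp6Δ, against 8, 4, 8 and 1 in WT (1.36, SE 0.50, FDR 0.0609), a call lost without any 1 of WT replicates 1, 2 and 4 and rrp6Δ replicates 2 and 3 (FDR 0.1003 to 0.171). The annotated coding ORF YPL222W, on the other strand, was not called (-0.53, SE 0.21, FDR 0.0681). YPL222C-A was the 1 member without a RefSeq entry, and without it 2 members rose.

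RPL18B (YNL301C) encodes a protein of the large ribosomal subunit. It had 311, 313, 266 and 275 normalized counts in rrp6Δ, against 137, 183, 156 and 107 in WT (log2 fold change 1.00, SE 0.21, FDR 0.00361). The strains did not overlap. Its tandem CUT, CUT797, ends 27 bases before it and had 18, 20, 25 and 2 counts in rrp6Δ, against 4, 5, 2 and 0 in WT (1.97, SE 0.73, FDR 0.0612), with overlapping libraries. That call was lost without any 1 of WT replicates 1 and 3 and rrp6Δ replicates 2 and 3 (FDR 0.111 to 0.150). CUT797 reached only 2.63% of the density of the RPL18B ORF-T in rrp6Δ and 1.14% in WT.

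Among the 5 members that encode cytosolic ribosomal proteins, 4 fell and RPL18B rose. Of the other 132 ORF-Ts named as such proteins, 112 fell (84.8%) and 1 rose. Many of these genes have near-identical copies, whose reads may be shared. RPS14A (YCR031C) had the lowest fitted value of the 4, with 60.2, 54.7, 66.5 and 84.6 normalized counts in rrp6Δ, against 86.0, 108, 136 and 240 in WT (log2 fold change -1.10, SE 0.29, FDR 0.0144). WT replicate 4 was the highest library, and the strains did not overlap. Its CUT, CUT466, runs 8 bases into it and had 158, 93, 120 and 50 counts in rrp6Δ, against 11, 8, 7 and 1 in WT (3.37, SE 0.44, FDR 3.15e-04). The copy RPS14B was the 1 other ribosomal protein ORF-T that rose, with 3055, 1660, 2767 and 1424 counts in rrp6Δ, against 730, 884, 512 and 332 in WT (1.25, SE 0.26, FDR 0.00372).

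RPS3, RPS25A and RPS0A belong to the small subunit, as RPS14A does. RPS3 had 562, 374, 644 and 698 normalized counts in rrp6Δ, against 1043, 1004, 1446 and 910 in WT (-0.95, SE 0.26, FDR 0.0156). RPS25A had 747, 700.2, 941 and 927 in rrp6Δ, against 1447, 1266, 2105 and 1055 in WT (-0.82, SE 0.26, FDR 0.0328). RPS0A had 177, 136, 211 and 246 in rrp6Δ, against 283, 257, 390 and 397 in WT (-0.78, SE 0.24, FDR 0.0274). No libraries overlapped between strains for these 3. Their CUTs differed. CUT606 before RPS25A rose (2.06, SE 0.44, FDR 0.00450), whereas CUT329 before RPS3 (0.16, SE 0.42, FDR 0.785) and CUT162 before RPS0A (0.18, SE 0.41, FDR 0.752) were not called. The copies RPS25B (-0.87, FDR 0.0115) and RPS0B (-0.93, FDR 0.0132), which have no tandem CUT, fell as well. Without rrp6Δ replicate 1, neither RPS25A (FDR 0.104) nor RPS0A (FDR 0.104) passed, and without WT replicate 3 RPS25A did not (FDR 0.106).

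URA2 encodes the enzyme that catalyses the first steps of pyrimidine synthesis. The ORF-T had 290, 374, 254 and 309 normalized counts in rrp6Δ, against 481, 621, 454 and 704 in WT, without overlap (log2 fold change -0.88, SE 0.22, FDR 0.0110). CUT680 starts 35 bases upstream, at the first base of the URA2 stretch printed above, and covers 70 bases of the ORF-T. It had 26, 41, 15 and 13 counts in rrp6Δ, against 0, 8, 1 and 2 in WT (2.53, SE 0.77, FDR 0.0267). Hence CUT680 rose while URA2 fell, and the ratio of the CUT to the ORF-T was higher in all rrp6Δ libraries. With TMM factors from ORF-Ts only, URA2 was no longer called.

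ADE12, adenylosuccinate synthase of purine synthesis, was the member with 2 CUTs, CUT325 at 135 and CUT324 at 279 bases upstream. CUT325 had 36, 70, 64 and 35 counts in rrp6Δ, against 7, 16, 9 and 2 in WT (2.06, SE 0.53, FDR 0.0119). CUT324 had 18, 9, 24 and 10 counts in rrp6Δ, against 2, 2, 3 and 1 in WT, a 5.15-fold difference of summed counts after scaling (2.45 to 12.5). Both rose, and no library of the strains overlapped. ADE12 itself had 133, 274, 148 and 146 normalized counts in rrp6Δ, against 251, 254, 252 and 217 in WT, and was not called (-0.47, SE 0.24, FDR 0.159). Replicate 2 was high among the rrp6Δ libraries, above all WT libraries, and without it ADE12 was down-regulated (-0.77, FDR 0.0133). ADE16, another purine synthesis gene with a tandem CUT, was not called either (-0.29, SE 0.19, FDR 0.257).

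**Figure D4:**
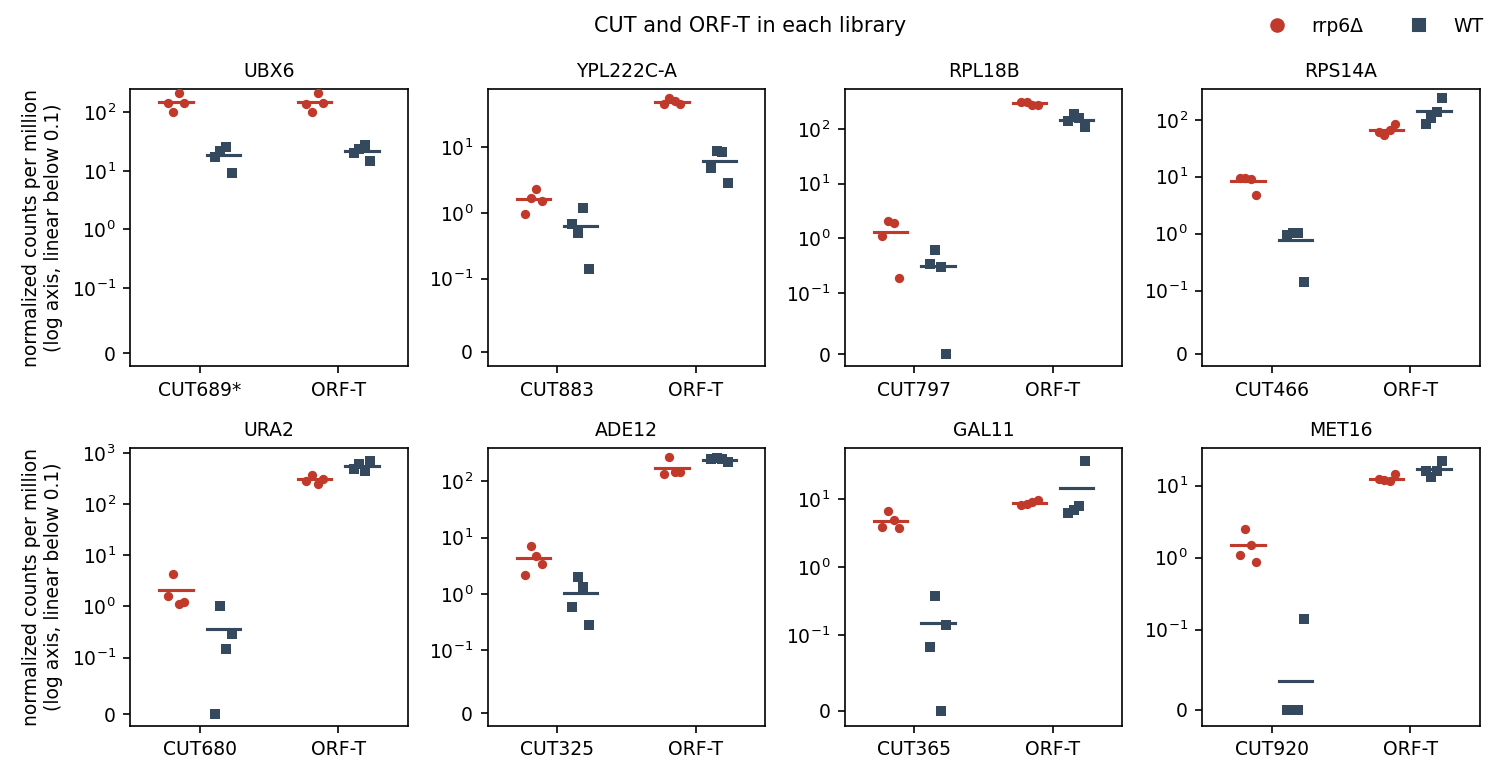
Normalized counts of the CUT (left in each panel) and the ORF-T (right) of 8 pairs in each library, with rrp6Δ as red circles left of WT as dark squares; lines are means of 4 libraries, and the axis is logarithmic above 0.1 and linear below. For ADE12 the nearer CUT, CUT325, is drawn. Mean CUT counts are higher in rrp6Δ in every panel, and those of CUT883 and CUT797 overlap between strains; ORF-T counts are higher in all rrp6Δ libraries for UBX6, YPL222C-A and RPL18B.

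Of 9 genes known for control by premature termination or upstream tandem transcription, the rule on coordinates took up URA2 and ADE12. Of the 9, NRD1 rose (log2 fold change 0.70, SE 0.29, FDR 0.0919), with overlapping libraries, URA2 fell, and HRP1, PCF11, IMD2, IMD3, URA8, ADE12 and SER3 were not called. Of 12 genes of CUT termination and decay, NAB3 was the 1 with a tandem CUT. NAB3 had 27.4, 16.5, 18.1 and 31.6 normalized counts in rrp6Δ, against 23.7, 30.05, 26.4 and 63.1 in WT, and was not called (-0.61, SE 0.33, FDR 0.177). In this list NRD1 rose, the deleted RRP6 fell, and the other 10 were not called.

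The other members that fell without overlap had diverse roles. RET2, the delta subunit of the COPI coat, had 13.8, 9.77, 10.9 and 13.1 normalized counts in rrp6Δ, against 19.3, 17.2, 14.8 and 48.1 in WT (-1.06, SE 0.35, FDR 0.0378). SUN4, a cell wall protein that acts in septation, had 36.4, 21.5, 46.7 and 39.5 in rrp6Δ, against 51.9, 62.1, 74.5 and 100.5 in WT (-1.001, SE 0.27, FDR 0.0139). YJL213W had 15.7, 11.7, 10.1 and 13.3 in rrp6Δ, against 25.3, 20.4, 21.0 and 33.0 in WT (-0.97, SE 0.23, FDR 0.00828). In all 3, WT replicate 4 was the highest library, and without it RET2 was not called (-0.45, FDR 0.162). Their CUTs, CUT580 (2.27, SE 0.67, FDR 0.0227), CUT337 (2.39, SE 0.45, FDR 0.00217) and CUT196 (2.22, SE 0.43, FDR 0.00256), rose. For CUT580, which had at most 3 counts in each WT library, the summed counts were 5.31-fold higher in rrp6Δ (2.54 to 12.8), and the libraries overlapped.

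RAD50, a subunit of the MRX complex that repairs double-strand breaks, was the member just inside the limit of 500 bases. Its CUT, CUT320, starts 497 bases upstream and ends 152 bases before it. The paper describes CUT320 as a noncoding transcript near the promoter of NRD1, on the strand opposite to NRD1. RAD50 had 23.8, 16.6, 20.2 and 25.3 normalized counts in rrp6Δ, against 35.8, 29.7, 33.2 and 51.5 in WT (-0.80, SE 0.23, FDR 0.0184). CUT320 had 24, 11, 16 and 12 counts in rrp6Δ, against 5, 4, 5 and 1 in WT (1.45, SE 0.45, FDR 0.0288). Thus CUT320 rose and RAD50 fell. The ORF-T just outside the limit was DUF1, whose CUT826 starts 505 bases upstream. There the fitted values were -0.24 (SE 0.22) for DUF1 and 0.38 (SE 0.32) for CUT826.

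SUI3, the beta subunit of translation initiation factor eIF2, had 93.9, 128, 124 and 96.4 normalized counts in rrp6Δ, against 137, 187, 196 and 221 in WT (-0.75, SE 0.21, FDR 0.0171). SUI3 was the member whose CUT, CUT404, fell too. ADH2 encodes the alcohol dehydrogenase that glucose represses. ADH2 had 27.4, 28.6, 14.6 and 14.3 in rrp6Δ, against 84.9, 155, 19.7 and 29.1 in WT. It had the lowest fitted value of the members (-1.77, SE 0.54, FDR 0.0265), but its WT libraries spread over a wide range that overlapped rrp6Δ, and the exact permutation test gave p = 0.114. CUT791 before ADH2 had 74, 78, 63 and 57 counts in rrp6Δ, against 10, 8, 5 and 3 in WT (2.87, SE 0.37, FDR 2.68e-04), without overlap.

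The 8 further members called down-regulated were STE18, PMD1, VMA11, RAD59, ALD6, TMA20, PST1 and ARO2, with fitted values between -0.74 and -0.59. PST1 was not called when the replicate entered the fit as a block. DESeq2 called neither PST1 nor ARO2. None of 4 glycolytic members (GPM1, TPI1, PFK1 and TDH1; -0.39 to 0.47) and none of 10 mitochondrial members (such as COX4, ATP16 and SDH6; -0.58 to 0.51) passed by edgeR, where 14.3% of all ORF-Ts fell and 2.09% rose. With the replicate as a block, the mitochondrial members AIM41 (-0.69, SE 0.17, FDR 0.00348) and COX4 (-0.59, SE 0.16, FDR 0.00786) fell. In DNA replication and repair, RAD50 and RAD59 fell, and SHU2, RFC5, MCM7 and CDC7 were not called. In the cell wall and septum, SUN4 and PST1 fell out of 6 members, of which DESeq2 called only SUN4. With the block SUN4 and DSE1 (-0.68, SE 0.20, FDR 0.0131) fell. Among 5 factors of transcription and RNA, GAL11, SWI5, CRZ1, STP4 and NAB3, none was called by edgeR without the block, and SWI5 fell with it (-0.67, SE 0.29, FDR 0.0665). In the glycolytic, mitochondrial and transcription groups, without the block, 0 members had an unadjusted p under 0.05, and DESeq2 called 0. Translation factors and tRNA synthetases apart from ribosomal proteins numbered 5, of which SUI3 and TMA20 fell. When the fit with the block was scaled on ORF-Ts alone, AIM41, COX4, DSE1 and SWI5 were not called. SUN4 still fell there (-0.69, SE 0.17, FDR 0.00578). Under that scaling TDH1 (0.75, SE 0.19, FDR 0.00543) and SDH6 (0.77, SE 0.30, FDR 0.0645) rose. STP4 (0.79, SE 0.27, FDR 0.0315) and SHU2 (0.61, SE 0.18, FDR 0.0173) rose as well. Which way members of these groups were called thus depended on the scaling.

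In the pairs with an overlap of over 100 bases, the ORF-T count includes the reads of the shared stretch. Apart from UBX6, none of their ORF-Ts was called. MTO1, a mitochondrial tRNA modification enzyme, had 58.8, 58.5, 40.9 and 43.3 normalized counts in rrp6Δ, against 58.3, 39.7, 45.3 and 37.1 in WT (0.16, SE 0.21, FDR 0.574). CUT585, which shares 295 bases with MTO1, had 163, 148, 143 and 87 counts in rrp6Δ, against 30, 19, 19 and 1 in WT, and rose without overlap (2.47, SE 0.49, FDR 0.00289). Its counts came to 16.9% to 26.4% of those of MTO1 in rrp6Δ, and 0.38% to 6.21% in WT. With the CUT counts taken off in proportion, the log2 fold change of MTO1 was -0.06.

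CUT184, which shares 246 bases with SMN1, rose (1.84, SE 0.51, FDR 0.0175), with overlapping libraries, and SMN1 was not called (-0.47, SE 0.28, FDR 0.212). DCW1, a protein of cell wall synthesis, and CUT717, which shares 348 bases with it, were both not called (-0.32, SE 0.21, FDR 0.267, and -0.29, SE 0.22, FDR 0.331). CUT717 counts came to 19.97% to 22.4% of those of DCW1 in rrp6Δ and 18.4% to 23.5% in WT. SRP40, a nucleolar protein, and CUT729, which shares 185 bases with it, were also not called (-0.54, SE 0.23, FDR 0.0937, and -0.03, SE 0.39, FDR 0.954). Taking the overlapped share of CUT counts off all 41 ORF-Ts left the calls at 3 up and 19 down. Of the 71 members whose CUT ends before them, 2 rose (2.82%) and 13 fell (18.3%), against 2.09% and 14.3% of all ORF-Ts.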

How the data were processed

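The authors mapped SOLiD reads to sacCer3 with bfast, counted them per annotated transcript with bamutils, and deposited raw read counts, the values used here. The methods describe 1 mapping without and 1 with rRNA and tRNA reads and do not say which lies behind the counts. The 8 normalized columns and the 3 columns of the authors' edgeR comparison (fold change, p-value, FDR) were not used. Strains were compared over all transcripts by edgeR 4.0.16 under R 4.3.3 (TMM, glmQLFit, glmQLFTest, no covariate). The unadjusted p-value passed 0.05 in 3 members that were higher and 29 that were lower.

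The members and lists were chosen with earlier results of these data known. Described by name were members past all thresholds without overlap between strains (10 highest and 10 lowest ORF-Ts, their CUTs, and the 3 highest and 3 lowest CUTs), both gene lists, and the members at the distance limit. Since 1 CUT fell, only that one stands for the 3 lowest. Partners of the 3 highest CUTs, pairs with over 100 shared bases, CUT567 with PMD1, ADH2 with CUT791, the role groups, the ribosomal protein copies and the neighbouring transcripts were chosen after their values were seen. RefSeq (R64) matched 110 of 111 members, and 952 of 958 antisense transcripts had RefSeq coordinates.

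Same-numbered libraries deviated together (correlations of 0.33 to 0.52, others -0.35 to 0.01), so a fit with the replicate as block was an alternative. The others were DESeq2 1.42.0, 2 count filters, 2 scalings, an FDR of 0.05, CUT counts taken off, other distances, and each library left out. Intervals cover counting error only. The replicates are described as biological, and their cultures are not named. The procedure was tested on simulated data.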

Additional observations from a re-analysis of the deposited data

Results flagged for a closer look

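In 12 of 98 groups of 4 libraries, 1 library stood apart from the other 3 by Dixon's criterion, which chance gives in about 1 of 20 groups. WT replicate 4 did so in 7 of them, high for RET2 (YFR051C, 48.1 normalized counts), NAB3 (YPL190C, 63.1) and GAL11 (YOL051W, 37.1), and low for ADE12 (YNL220W, 217), CUT466 (0.143), CUT920 (0.143) and CUT585 (0.143). For these 3 CUTs the value is that of 1 count. In rrp6Δ, replicate 2 stood high for CUT329 (5.30), CUT606 (18.9), CUT680 (4.26) and ADE12 (274), and replicate 4 low for CUT466 (4.79). Their part in the results was not tested beyond leaving each library out.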

How the results depend on the processing

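All 3 ORF-Ts that rose were also called with DESeq2, both count filters, both scalings, the replicate block and an FDR of 0.05, and UBX6 lost its call only when all counts of CUT689* were taken off (-4.78). The 19 falls depended on processing. Down-regulated members numbered 1 with at least 10 counts in every library (other ORF-Ts 2.04%) and 5 with TMM factors from ORF-Ts only (2.55%). They numbered 2 with library totals (1.47%), and 6 when the replicate block was joined with those ORF-T factors. Up-regulated members numbered 6 with the ORF-T factors (other ORF-Ts 3.90%), 5 with library totals (3.85%) and 10 with the block and ORF-T factors. Tandem CUTs up-regulated numbered 4 with at least 10 counts in every library, where 15 were left to test (26.7%), against 61.9% of 84 other CUTs. With the replicate block alone, 3 members rose (2.70%), 26 fell (23.4%) and 81 CUTs rose (72.3%). Of other ORF-Ts 2.62% rose and 19.3% fell under this fit, and 88.4% of other CUTs rose. Of the 26 members that fell, 18 were among the 19. PST1 was the 1 that dropped out. Within 250 bases, of 48 members 2 rose (4.17%) and 6 fell (12.5%), against 2.09% and 14.3% of all ORF-Ts. Of their 48 CUTs 28 rose (58.3%), against 81.3% of all CUTs. Within 1000 bases 6 members rose, 31 fell and 122 CUTs rose. These counts differ since fewer or more pairs enter. The number of members within 1000 bases is not given here, so those counts cannot be read as shares. Leaving out 1 library gave 3 to 4 rises and 10 to 21 falls of members, 10 without rrp6Δ replicate 1 and 10 without WT replicate 4, and a median difference of -0.12 to -0.0026 from other ORF-Ts. PMD1 was not called without rrp6Δ replicates 1, 3 or 4 or WT replicates 1 or 4 (FDR 0.114 to 0.216), and SRP40 fell without WT replicate 2 and SMN1 without rrp6Δ replicate 2. With RefSeq ORF-Ts only, an alternative chosen after seeing the data, 2 members rose.

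Some values near 0 changed sign, with none of them called. CUT887 was at 0.20 with TMM factors from ORF-Ts only, 0.25 with library totals and 0.19 with the replicate block and those factors. CUT717 was at 0.027, 0.069 and 0.0027 under these 3 settings. CUT729 was at 0.29, 0.26 and 0.33, and at 0.013 with the replicate block alone. GAL11 was at 0.028 with the block and ORF-T factors, and DCW1 at 0.035 with library totals. MTO1 was at -0.065 with CUT counts taken off in proportion and -0.14 with all taken off. With 1 library left out, values ranged from -0.044 to 0.41 for CUT162, -0.28 to 0.37 for CUT329, -0.33 to 0.020 for CUT887, -0.94 to 0.41 for GAL11, -0.28 to 0.30 for CUT729 and -0.053 to 0.38 for CUT567. Low CUT counts limit what can be called. In 9 tandem CUTs no WT library passed 3 counts.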
